A study of Zygosaccharomyces parabailii with 12 samples.

Results

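Zygosaccharomyces parabailii is a hybrid yeast of the Z. bailii clade, a group known for spoiling acidic foods. The comparison described here is that of cells grown with lactic acid and cells grown without it, both taken 42 h into a batch bioreactor fermentation, after the diauxic shift. It rests on 6 of the 12 RNA-seq libraries of the series: 3 from the culture with 40 g per liter of lactic acid and 3 from the control culture without it. All libraries came from strain ATCC60483 in Verduyn medium, a defined mineral medium with glucose, set to pH 3, and their ribosomal RNA was depleted before sequencing. The other 6 libraries were taken at 18 h, in exponential growth, and serve here only to share the estimate of the spread and to show where the response at 42 h differs from that at 18 h. One of them, a control library with 4606 counts, was left out, so that 11 libraries entered the model. Each group consists of triplicate samples of the fermentation, and the p-values measure only the spread between such samples, which may be technical. The 6 libraries held between 8979873 and 14403304 counts, and 9683 genes were tested.

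A yeast that ferments glucose leaves ethanol and other products in the medium, and the diauxic shift is the change of metabolism by which it goes on to respire them once the glucose is gone. Lactic acid is a weak acid. At pH 3 it is largely undissociated, enters the cell and releases a proton and the lactate anion inside. Saccharomyces cerevisiae answers weak acids through the transcription factor Haa1 and adjusts its iron uptake, cell wall and proton pumping. As a hybrid, Z. parabailii holds most genes as 2 homeologs. The gene names end in _A for the copy from Z. bailii, in _B for the copy from the other parent and in _N where neither could be assigned. Levels are given as CPM, a gene's counts relative to a fixed total per library after TMM scaling, which sets the libraries to a common level on the assumption that most genes do not differ. A gene is described as having risen or fallen where the Benjamini-Hochberg adjusted p of edgeR's quasi-likelihood test was under 0.05 and the change at least 2-fold. Differences are log2 fold changes of lactic acid over control with their standard errors.

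The stage of the cultures was checked in the controls. Isocitrate lyase of the glyoxylate cycle (ICL1, G05050_B) was higher in control cells at 42 h than at 18 h by a log2 fold change of 5.36, with an edgeR adjusted p of 1.10e-08. Fructose-1,6-bisphosphatase of gluconeogenesis (FBP1, F01610_A) was higher by 5.35, with an edgeR adjusted p of 1.96e-08. Both genes are repressed by glucose in S. cerevisiae. The stage of the lactic acid cultures was not checked in this way, and both genes were higher in lactic acid than in control at 42 h, as given below. The study chose its times for comparable growth, and cites slower growth and glucose use with lactic acid.

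At 42 h, 683 genes had risen (7.05% of those tested) and 959 had fallen (9.90%) in lactic acid. By the adjusted p alone, 2730 genes were higher (28.2%) and 3215 lower (33.2%). The first principal component of the 6 libraries took 80.7% of the variance and separated lactic acid from control. The second took 13.5% and separated the 3 lactic acid libraries from each other, with replicate 1 at one end and replicate 3 at the other, while the 3 control libraries lay close together. Where a gene's 3 lactic acid values are given, they show such unevenness, which is remarked on for only some of the genes. Lactic acid libraries also had a larger share of counts in their 20 most counted genes, 15.7, 15.5 and 16.1%, against 11.3, 10.4 and 10.2% in control. Scaling to plain library totals moved the all-gene median of the log2 fold change to -0.386, against -0.0593 with TMM, and the split of calls to 340 higher and 1893 lower, so that 15.2% of calls were higher in place of 41.6%. Statements on direction are relative to the TMM scale. In bulk RNA, fewer cells with a transcript and less of it per cell cannot be told apart.

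The largest rises were spread over mitochondrial, sporulation and unannotated genes. The 15 largest changes in each direction were named only where the groups did not overlap, so in those genes the separation is no result. ACH1, whose product hydrolyses acetyl-CoA or moves its CoA to other acids in mitochondria, had both copies high: I03690_B had 8448, 8176 and 6862 CPM in lactic acid, against 531, 559.7 and 467 CPM in control (log2 fold change 3.91 ± 0.16, edgeR adjusted p = 4.84e-08). Its homeolog D03990_A had 3417, 2655 and 1607 CPM in lactic acid, against 427, 438 and 397 CPM in control (log2 fold change 2.60 ± 0.23, edgeR adjusted p = 4.10e-06). Both copies were above control in every lactic acid library, and the B copy rose more than the A copy, the log2 ratio of A to B changing by -1.38 ± 0.16, limma adjusted p = 1.31e-04. CCP1, mitochondrial cytochrome c peroxidase, which removes hydrogen peroxide, had 731, 804 and 1248 CPM in lactic acid, against 76.0, 78.7 and 57.5 CPM in control for O03050_A (log2 fold change 3.71 ± 0.31, edgeR adjusted p = 2.57e-06). The B copy, I03080_B, had 562, 656 and 981 CPM in lactic acid, against 65.4, 65.0 and 51.0 CPM in control (log2 fold change 3.60 ± 0.34, edgeR adjusted p = 5.78e-06). In both copies replicate 3 was the highest of the lactic acid libraries, and no lactic acid value came near a control value.

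COX26, a small protein that associates with cytochrome c oxidase, had 2359, 2285 and 2726 CPM in lactic acid, against 243, 287 and 253 CPM in control for D02375_N (log2 fold change 3.23 ± 0.17, edgeR adjusted p = 1.57e-07). MPC3/MPC2, a subunit of the carrier that takes pyruvate into mitochondria, had 1989, 2029 and 2321 CPM in lactic acid, against 217, 265 and 229 CPM in control for M00830_B (log2 fold change 3.15 ± 0.20, edgeR adjusted p = 4.89e-07). It was named after its values were seen, and its homeolog J00700_A had a log2 fold change of 2.78. In both genes the libraries of each group lay close together.

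Genes known from sporulation in S. cerevisiae were also among the largest rises. SPO24, a short open reading frame known in S. cerevisiae for its expression in sporulation, reached 2186, 2355 and 3410 CPM in lactic acid, against 199, 218 and 179 CPM in control for O02620_A (log2 fold change 3.74 ± 0.42, edgeR adjusted p = 1.95e-05), and its homeolog I02650_N had a log2 fold change of 3.29. SSP1, which acts at the leading edge of the growing spore membrane, had 181, 143 and 93.9 CPM in lactic acid, against 8.91, 9.02 and 10.9 CPM in control for D02790_B (log2 fold change 3.85 ± 0.22, edgeR adjusted p = 2.56e-07), and its homeolog F01540_A had one of 3.55. At 18 h D02790_B had a log2 fold change of -0.29, and its response at 42 h less that at 18 h was 4.14 ± 0.35, edgeR adjusted p = 8.85e-06. Both SSP1 copies were highest in replicate 1 and lowest in replicate 3.

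Other large rises were in genes with little or no annotation. F06100_B, related to an acetyltransferase of the GNAT family, had 153, 186 and 45.7 CPM in lactic acid, against 2.21, 2.84 and 2.24 CPM in control (log2 fold change 5.73 ± 0.64, edgeR adjusted p = 1.97e-05), the largest rise under the naming rule. O04160_N, an uncharacterized protein, had 90.8, 99.9 and 26.1 CPM in lactic acid, against 2.69, 1.42 and 1.62 CPM in control (log2 fold change 5.20 ± 0.62, edgeR adjusted p = 3.06e-05). In both, replicate 3 stood well under the other lactic acid libraries and still well above control. The homeologs B08970_A and A08990_B, related to the membrane protein YOR390W, shared this pattern: A08990_B had 67.1, 63.6 and 17.9 CPM in lactic acid, against 2.49, 2.74 and 1.39 CPM in control (log2 fold change 4.50 ± 0.56, edgeR adjusted p = 3.81e-05), and B08970_A had a log2 fold change of 4.56. H04990_N, uncharacterized, had 841, 866 and 493 CPM in lactic acid, against 44.3, 48.0 and 39.9 CPM in control (log2 fold change 4.06 ± 0.30, edgeR adjusted p = 1.17e-06). O04010_A, annotated as related to phenazine biosynthesis, had a log2 fold change of 3.68 with an edgeR adjusted p of 3.96e-05. G04440_N, uncharacterized, had 149.5, 192 and 191 CPM in lactic acid, against 18.9, 21.8 and 15.3 CPM in control (log2 fold change 3.25 ± 0.17, edgeR adjusted p = 1.27e-07), and its lactic acid libraries were even.

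**Figure D1:**
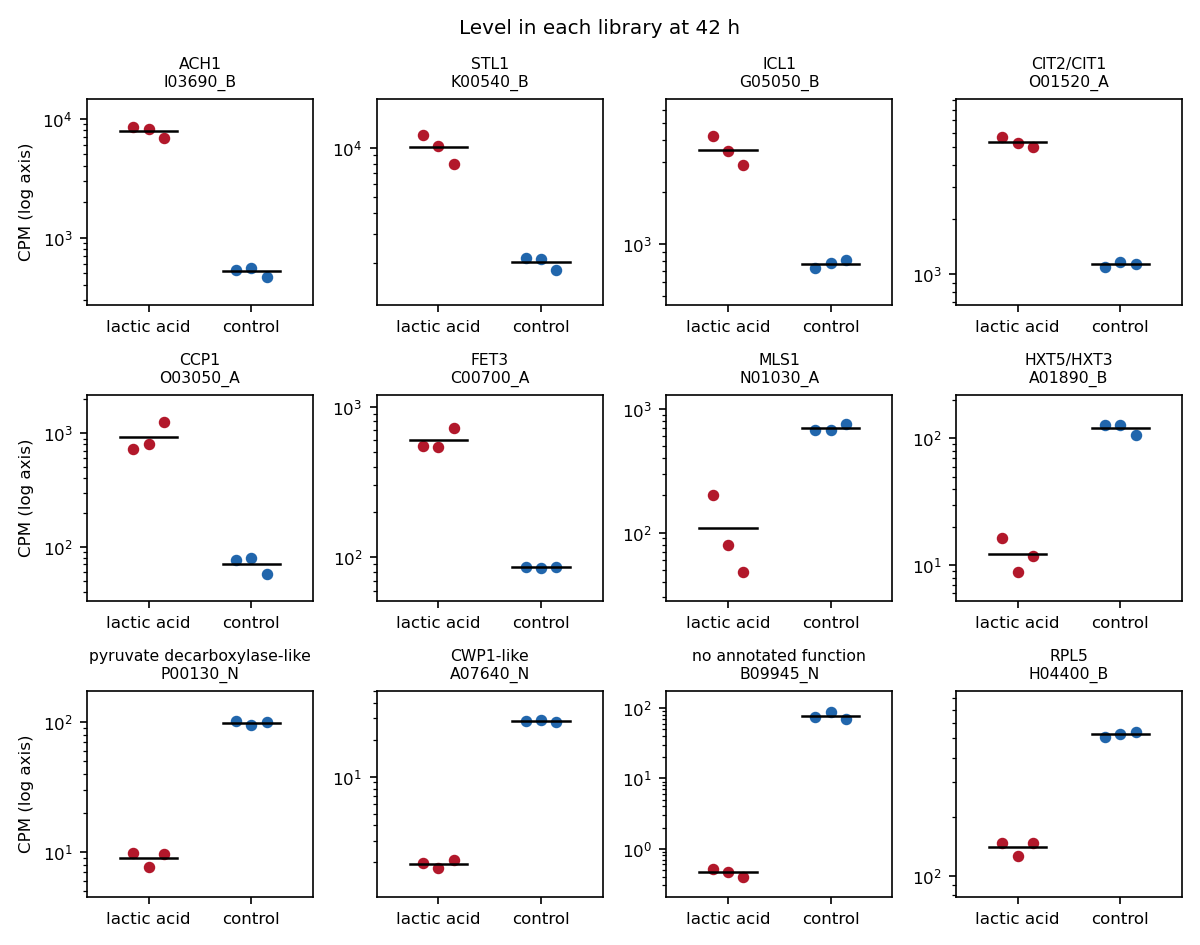
CPM (log axis) of 12 genes described in the text in each library at 42 h, lactic acid in red on the left of each panel and control in blue on the right, with replicates 1 to 3 in order and a line at each mean. In no panel do the groups overlap, and the lactic acid values of MLS1 (N01030_A) run between 47.8 and 202 CPM while its control values run between 673 and 754 CPM.

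The largest fall was that of B09945_N, a gene of 171 bp with no annotated function. It had 0.517, 0.468 and 0.398 CPM in lactic acid, against 75.2, 89.4 and 70.6 CPM in control (log2 fold change -7.37 ± 0.34, edgeR adjusted p = 8.51e-08), and its counts were 6, 5 and 4 in the lactic acid libraries against 1088, 882 and 916 in the control libraries. At 18 h the gene had a log2 fold change of -0.30, and the response at 42 h less that at 18 h was -7.07 ± 0.50, edgeR adjusted p = 4.19e-06. The next genes on either side, looked up after this value was seen, did not share it: B09940_A had a log2 fold change of 0.04 and B09950_N one of -0.87. D01120_N, uncharacterized, had 15.3, 15.1 and 16.3 CPM in lactic acid, against 233, 270.0 and 286 CPM in control (log2 fold change -4.08 ± 0.16, edgeR adjusted p = 4.84e-08). I05810_A, annotated as Ddi3, a cyanamide hydratase in S. cerevisiae, had 8.97, 7.59 and 13.8 CPM in lactic acid, against 155, 176 and 162 CPM in control (log2 fold change -4.02 ± 0.18, edgeR adjusted p = 6.65e-08). Both genes were an order of magnitude under control in every lactic acid library at 42 h, whereas at 18 h their log2 fold changes were 0.65 and 0.01.

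A pair of genes annotated as pyruvate decarboxylase, the enzyme that commits pyruvate to fermentation, fell about as far as each other: P00130_N had 9.83, 7.68 and 9.65 CPM in lactic acid, against 102, 96.2 and 101 CPM in control (log2 fold change -3.46 ± 0.13, edgeR adjusted p = 4.84e-08), and A00190_N had 5.09, 7.59 and 5.87 CPM in lactic acid, against 56.4, 55.2 and 57.9 CPM in control (log2 fold change -3.19 ± 0.13, edgeR adjusted p = 4.84e-08). PDC1 itself, named after its values were seen, was far less affected, with log2 fold changes of -0.82 for D03210_N and -0.87 for F01930_N, short of 2-fold. HXT5/HXT3, annotated as a low-affinity glucose transporter, had 16.3, 8.90 and 11.7 CPM in lactic acid, against 127, 129 and 107 CPM in control for A01890_B (log2 fold change -3.29 ± 0.21, edgeR adjusted p = 4.89e-07). Its homeolog C07520_A had 10.4, 4.87 and 4.28 CPM in lactic acid, against 42.6, 37.4 and 30.6 CPM in control (log2 fold change -2.48 ± 0.26, edgeR adjusted p = 1.38e-05). In neither copy did a lactic acid library reach a control library. C00300_A, annotated as related to a channel under repression by Mig1 and Mig2 in glucose, had 6.04, 4.97 and 1.89 CPM in lactic acid, against 42.2, 45.6 and 40.3 CPM in control (log2 fold change -3.29 ± 0.27, edgeR adjusted p = 2.26e-06). MLS1, malate synthase, fell to 202, 79.8 and 47.8 CPM in lactic acid, against 673, 674 and 754 CPM in control for N01030_A (log2 fold change -2.67 ± 0.40, edgeR adjusted p = 1.38e-04).

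A07640_N is an uncharacterized gene whose homeolog J03940_A is annotated as the cell wall mannoprotein CWP1. A07640_N had 1.98, 1.78 and 2.09 CPM in lactic acid, against 28.8, 29.2 and 27.8 CPM in control (log2 fold change -3.87 ± 0.31, edgeR adjusted p = 2.13e-06). The log2 fold change was -3.62 for J03940_A, whereas A07630_N, also named CWP1, had one of -0.58, short of 2-fold. A03740_B, annotated as the multidrug ABC transporter SNQ2, had 13.4, 10.6 and 8.46 CPM in lactic acid, against 84.3, 76.7 and 66.3 CPM in control (log2 fold change -2.80 ± 0.16, edgeR adjusted p = 2.56e-07). STB1, which binds the Sin3 repressor and takes part in the start of the cell cycle, had a log2 fold change of -2.71 for C03290_A. A02550_N, uncharacterized, had a log2 fold change of -2.89, and A00220_B, with weak similarity to an oxidoreductase, one of -2.71.

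The gene lists below were matched by S. cerevisiae names to the 2988 genes whose names come from tables made without regard to expression, and each is read against the shares over all genes, 7.05% higher and 9.90% lower, and the median of -0.0593. Genes named only from tables that had been picked by expression, such as MLS1, FBP1, CIT2/CIT1, FET3 and STL1, are not in these counts. No test was run on a list as a whole. The small families were taken from the study's text instead: genes related to siderophore transporters, FFZ2, FIT2 and formate dehydrogenase. That text names them for their response to lactic acid, so their shares are not comparable with those of all genes.

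Genes of the cytosolic ribosome were lower in lactic acid. Of 79 ribosomal protein genes tested, 45 had fallen and none had risen, 78 were lower by the edgeR adjusted p alone, and in 76 the libraries of the groups did not overlap, against 35.2% of all genes. Their log2 fold changes lay between -1.90 and -0.458, with a median of -1.08. Together these genes took 0.799, 1.03 and 1.21% of the counts of the lactic acid libraries, against 2.50, 2.76 and 3.07% of those of the control libraries. The median lay near the 2-fold limit, and the count past it varied, with 39 to 67 genes when a library was left out and 73 with library totals.

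RPL5, the large subunit protein that carries 5S rRNA, had 147, 126 and 148 CPM in lactic acid, against 509, 527 and 540.5 CPM in control for H04400_B (log2 fold change -1.90 ± 0.14, edgeR adjusted p = 1.12e-06). Its homeolog B05590_A had 184, 149 and 171 CPM in lactic acid, against 579, 594 and 614 CPM in control (log2 fold change -1.82 ± 0.13, edgeR adjusted p = 1.21e-06). RPL17B/RPL17A had 77.6, 65.9 and 70.4 CPM in lactic acid, against 232, 259 and 279 CPM in control for G04940_B (log2 fold change -1.85 ± 0.14, edgeR adjusted p = 1.45e-06). The homeologs of RPL5 and RPL17 were not told apart in response by the limma test of the A to B ratio, whose log2 changes were 0.08 ± 0.06, limma adjusted p = 0.320 and 0.10 ± 0.06, limma adjusted p = 0.215. These 4 genes had already fallen in lactic acid at 18 h, by log2 fold changes between -3.03 and -2.22, although the median of the list was then 0.57. By the interaction test, the response of 71 of the 79 genes was lower at 42 h than at 18 h and that of 2 was higher, against 24.9% and 28.9% of all genes.

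Translation factors and ribosome assembly genes also had medians under that of all genes. With library totals the counts that fell were 11 for translation factors, 46 for ribosome biogenesis and 15 for mitochondrial ribosomal proteins. Of 23 genes of translation initiation and elongation, 6 had fallen and none had risen, 17 were lower by the edgeR adjusted p, with a median of -0.62. PAB1, the poly(A)-binding protein, had 119, 76.9 and 80.2 CPM in lactic acid, against 286, 302 and 300.0 CPM in control for E02190_A (log2 fold change -1.68 ± 0.17, edgeR adjusted p = 8.84e-06), and its homeolog A01690_B had a log2 fold change of -1.51. NEW1, an ATPase of the translation elongation factor 3 type, had log2 fold changes of -1.75 for A03820_B and -1.41 for E05080_A. Of 116 genes of ribosome biogenesis, 27 had fallen and 2 had risen, with a median of -0.52. NOP6, a small nucleolar protein of 40S assembly, had log2 fold changes of -2.07 for B00980_A and -1.97 for G05650_B. Of 62 mitochondrial ribosomal protein genes, 4 had fallen, a smaller share than the 9.90% of all genes. None had risen, and the median was -0.35. MRPL22 of the mitochondrial large subunit had a log2 fold change of -1.14 for B01040_A, which without control replicate 1 was -0.94, and its homeolog G05590_B had one of -0.36. None of these medians changed sign with library totals, RLE factors, DESeq2 or removal of a trend on coding length.

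Both ribosome biogenesis genes that had risen were A copies that are neighbours in the annotation, and their B copies, also neighbours, did not rise. MAK5, an RNA helicase of 60S assembly, had 109.9, 128 and 158 CPM in lactic acid, against 51.3, 51.4 and 45.4 CPM in control for C04200_A (log2 fold change 1.42 ± 0.14, edgeR adjusted p = 6.66e-06). Its homeolog A05710_B had 16.2, 20.2 and 27.1 CPM in lactic acid, against 35.8, 37.0 and 42.0 CPM in control (log2 fold change -0.86 ± 0.16, edgeR adjusted p = 8.24e-04). The log2 ratio of A to B changed by 2.28 ± 0.11, limma adjusted p = 4.37e-07. BMT2, an rRNA methyltransferase, had 81.3, 99.3 and 138 CPM in lactic acid, against 32.7, 36.6 and 39.1 CPM in control for C04210_A (log2 fold change 1.55 ± 0.16, edgeR adjusted p = 1.31e-05). A05720_B, its B copy, had 11.6, 14.9 and 19.9 CPM in lactic acid, against 18.7, 23.0 and 18.5 CPM in control (log2 fold change -0.38 ± 0.17, edgeR adjusted p = 0.0776), and the ratio changed by 1.92 ± 0.10, limma adjusted p = 7.67e-07. In both pairs the A copy was above control in every lactic acid library, and the B copy was lower in MAK5 and overlapped with control in BMT2.

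**Figure D2:**
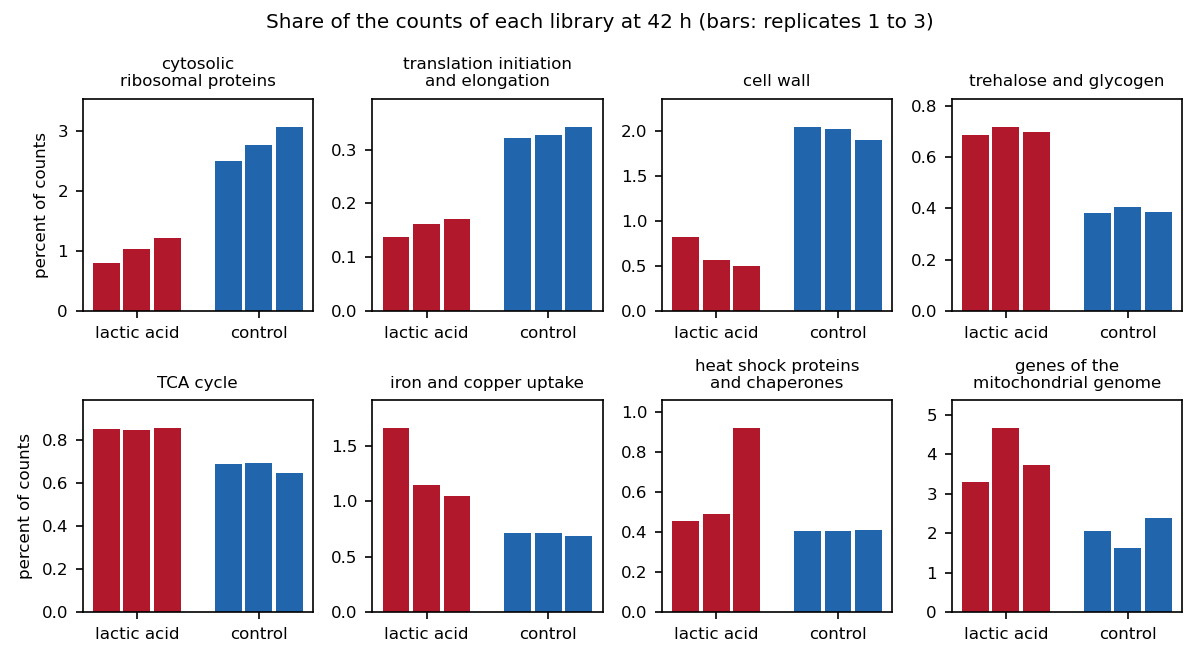
Percent of the counts of each library at 42 h taken by 7 gene lists and by the genes of the mitochondrial genome, with lactic acid in red on the left and control in blue on the right, 1 bar a replicate. Ribosomal protein genes took 0.799 to 1.21% in lactic acid and 2.50 to 3.07% in control, while in heat shock proteins and chaperones 1 lactic acid library, replicate 3, stands above the rest.

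Genes of the TCA cycle and of the mitochondrial ATP synthase were more often higher than lower. Of 12 TCA cycle genes, 3 had risen and none had fallen, 8 were higher by the edgeR adjusted p, and the median was 0.78. A single gene had fallen with library totals and without lactic acid replicate 1. The list took 0.853, 0.850 and 0.857% of the counts of the lactic acid libraries, against 0.692, 0.692 and 0.650% of those of the control libraries. IDH1, a subunit of mitochondrial isocitrate dehydrogenase, had 1020, 1167 and 1517 CPM in lactic acid, against 295, 336 and 307 CPM in control for B03070_A (log2 fold change 1.98 ± 0.19, edgeR adjusted p = 5.84e-06), and its homeolog G03560_B had a log2 fold change of 1.73. The citrate synthase gene CIT2/CIT1, chosen as an example after its values were seen, had 5640, 5233 and 5024 CPM in lactic acid, against 1097, 1162 and 1134 CPM in control for O01520_A (log2 fold change 2.23 ± 0.13, edgeR adjusted p = 3.64e-07). Its homeolog I01560_B had 5582, 4170 and 2787 CPM in lactic acid, against 1058, 1059 and 1005 CPM in control (log2 fold change 2.01 ± 0.22, edgeR adjusted p = 1.71e-05), less even over the lactic acid libraries.

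Of 16 ATP synthase and carrier genes, 4 had risen and none had fallen, 13 were higher by the edgeR adjusted p, and the median was 0.68. The 4 were both copies of ATP4 and of ATP14, subunits of the ATP synthase, at log2 fold changes of at most 1.18. Without lactic acid replicate 3 only 1 had risen, and without control replicate 1 only 2. With library totals none of the 4 passed 2-fold, and the median was 0.36. Of 55 respiratory chain genes, 10 had risen and 1 had fallen, with a median of 0.13, which was -0.20 with library totals. The count that fell was 3 with library totals and 2 without control replicate 2 or any one of the lactic acid libraries. NDE2/NDE1, an external NADH dehydrogenase of the inner membrane, had 2911, 1601 and 915 CPM in lactic acid, against 396, 386 and 346 CPM in control for A01390_B (log2 fold change 2.27 ± 0.35, edgeR adjusted p = 1.71e-04). Replicate 1 was the highest of the 3 lactic acid libraries and replicate 3 the lowest. SDH6, an assembly factor of succinate dehydrogenase, was the 1 that fell: B09300_A had a log2 fold change of -1.33 and its homeolog A09340_B one of -0.05, and their log2 ratio changed by -1.28 ± 0.14, limma adjusted p = 1.03e-04.

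Genes encoded in the mitochondrial genome took 3.31, 4.66 and 3.73% of the counts of the lactic acid libraries, against 2.07, 1.62 and 2.39% of those of the control libraries. Of 13 tested, 6 had risen and none had fallen, against 7.05% and 9.90% of all genes, and 9 were higher by the edgeR adjusted p. For this set no counts were taken with library totals or with a library left out. Not all members were even: ZPARMT025 had 348, 449 and 27.9 CPM in lactic acid, against 57.6, 45.0 and 260 CPM in control, and was not called. ZPARMT029, which had risen, was at low levels, with 6.47, 12.6 and 11.5 CPM in lactic acid. The file gives these genes by identifier only. ZPARMT030 had 12132, 14896 and 15822 CPM in lactic acid, against 4616, 4265 and 4731 CPM in control (log2 fold change 1.65 ± 0.20, edgeR adjusted p = 3.81e-05), and ZPARMT034 had 13412, 16668 and 11786 CPM in lactic acid, against 5073, 4012 and 6550 CPM in control (log2 fold change 1.42 ± 0.22, edgeR adjusted p = 2.08e-04).

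Genes around acetyl-CoA, glyoxylate and glycerol went in both directions. Of 14 genes of the glyoxylate cycle and gluconeogenesis, 2 had risen and 1 had fallen, against 3 fallen with library totals, 2 without lactic acid replicate 1 and none without replicate 2 or replicate 3. Those that rose were the copies of ICL1: G05050_B had 4220, 3443 and 2848 CPM in lactic acid, against 722, 778 and 809 CPM in control (log2 fold change 2.19 ± 0.17, edgeR adjusted p = 1.84e-06), and B01580_A had 2777, 2388 and 1963 CPM in lactic acid, against 583, 605 and 672 CPM in control (log2 fold change 1.94 ± 0.15, edgeR adjusted p = 1.46e-06). MLS1, the next enzyme of the cycle, went the other way, as given above for N01030_A, and its homeolog F05340_B had 382, 175 and 99.3 CPM in lactic acid, against 671, 682 and 777 CPM in control (log2 fold change -1.70 ± 0.35, edgeR adjusted p = 0.00139). The gene that fell within the list was ACS1, acetyl-CoA synthetase, with 1719, 696 and 584 CPM in lactic acid, against 1987, 2153 and 2064 CPM in control (log2 fold change -1.05 ± 0.35, edgeR adjusted p = 0.0200), where replicate 1 was close to control. Its log2 fold change was -1.71 without lactic acid replicate 1, and short of 2-fold without replicate 2 (-0.87) or replicate 3 (-0.79).

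FBP1 had 1202, 1019 and 1118 CPM in lactic acid, against 274, 302 and 256 CPM in control for F01610_A (log2 fold change 2.01 ± 0.19, edgeR adjusted p = 5.64e-06), and its other copy, D02890_A, had a log2 fold change of 1.96. IDP2/IDP3, the NADP-dependent isocitrate dehydrogenase of cytosol and peroxisome, had 2013, 2234 and 2101 CPM in lactic acid, against 398, 438 and 425 CPM in control for O01260_A (log2 fold change 2.33 ± 0.14, edgeR adjusted p = 4.49e-07). Its homeolog I01300_B had a log2 fold change of 2.26. The lactic acid libraries were even in FBP1 and IDP2. STL1, which takes up glycerol with protons, had high counts in both groups: K00540_B had 12048, 10306 and 8000 CPM in lactic acid, against 2124, 2095 and 1813 CPM in control (log2 fold change 2.33 ± 0.26, edgeR adjusted p = 2.03e-05), and C00630_A had 8486, 5948 and 3537 CPM in lactic acid, against 1609, 1563 and 1348 CPM in control (log2 fold change 1.99 ± 0.35, edgeR adjusted p = 4.62e-04). Both copies were above control in every lactic acid library and highest in replicate 1. GUT1, glycerol kinase, had 13927, 6501 and 3312 CPM in lactic acid, against 1706, 1790 and 1681 CPM in control for G04130_B (log2 fold change 2.20 ± 0.40, edgeR adjusted p = 5.75e-04), with 4-fold between its lactic acid libraries. Its homeolog B02500_A had 8533, 3307 and 1599 CPM in lactic acid, against 2226, 2172 and 2105 CPM in control (log2 fold change 1.05 ± 0.43, edgeR adjusted p = 0.0535), so that the lactic acid values lay on both sides of control and the copy was not called. GND2/GND1, 6-phosphogluconate dehydrogenase, which makes NADPH, had 4113, 4380 and 3906 CPM in lactic acid, against 1137, 1177 and 1118 CPM in control for D02800_B (log2 fold change 1.85 ± 0.13, edgeR adjusted p = 9.51e-07). GOR1, a glyoxylate reductase, had 316, 329 and 340.0 CPM in lactic acid, against 70.3, 81.9 and 77.2 CPM in control for P00960_A (log2 fold change 2.10 ± 0.11, edgeR adjusted p = 1.27e-07).

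Few genes of glycolysis were called. Of 12 genes of glycolysis and fermentation in the list, which also holds GUT1, 2 had risen, G04130_B (GUT1) and B00770_N (GCR2, a transcriptional activator of glycolytic genes), and none had fallen. GCR2 was barely past 2-fold, with a log2 fold change of 1.03, and 0.87 without lactic acid replicate 1. The median was -0.01 at 42 h, or 0.04 with RLE factors and -0.33 with library totals, where 1 had risen and 1 had fallen, and -1.96 at 18 h, and by the interaction test the response of 10 of the 12 was higher at 42 h than at 18 h and none was lower. ENO1/ENO2, enolase, had 1596, 1568 and 1770 CPM in lactic acid, against 1516, 1547 and 1817 CPM in control for J04500_A (log2 fold change 0.02 ± 0.15, edgeR adjusted p = 0.932), and its response at 42 h less that at 18 h was 2.49 ± 0.22, edgeR adjusted p = 1.14e-05. CDC19/PYK2, pyruvate kinase, had a log2 fold change of -0.38 for A00760_A at 42 h and of -3.83 at 18 h. Both were chosen as examples after their values were seen.

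Sugar transport and glucose signalling genes went both ways. Of 14 in the list, 3 had risen and 5 had fallen, with a median of -0.41. Beside the fall of HXT5/HXT3, the genes for MIG3/MIG2, repressors of transcription in glucose, had risen: E05480_A had 436, 423 and 523 CPM in lactic acid, against 96.0, 96.1 and 109.8 CPM in control (log2 fold change 2.19 ± 0.18, edgeR adjusted p = 2.76e-06), and its homeolog A03410_B had a log2 fold change of 1.86. MTH1/STD1, which holds hexose transporter genes in check when glucose is low, had a log2 fold change of 1.05 for B07400_A, and of 0.81, short of 2-fold, without lactic acid replicate 1. MSN1, a transcription factor of several stress and starvation responses named after its values were seen, had 728, 428 and 533 CPM in lactic acid, against 120.4, 139.8 and 134 CPM in control for C03550_A (log2 fold change 2.10 ± 0.18, edgeR adjusted p = 3.54e-06), and its homeolog A02710_B had a log2 fold change of 2.01. The fructose facilitator genes related to FFZ2 were low in control and higher in lactic acid. F06230_N had 66.7, 83.1 and 98.9 CPM in lactic acid, against 8.98, 8.62 and 9.33 CPM in control (log2 fold change 3.20 ± 0.20, edgeR adjusted p = 4.74e-07), and N00190_A had 9.40, 10.6 and 14.3 CPM in lactic acid, against 5.53, 4.87 and 4.47 CPM in control (log2 fold change 1.20 ± 0.21, edgeR adjusted p = 4.84e-04). Without lactic acid replicate 3 the log2 fold change of N00190_A was 0.99, short of 2-fold. The remaining member of the family did not pass the filter on low values.

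Genes of iron and copper uptake were mostly higher. Of 38 tested, 10 had risen and 4 had fallen, 27 were higher by the edgeR adjusted p, and the median was 0.67. With library totals the median was 0.34 and 2 had risen. CTR1, the plasma membrane copper transporter, had 359.6, 338 and 538 CPM in lactic acid, against 151, 131 and 125 CPM in control for B08230_A (log2 fold change 1.60 ± 0.22, edgeR adjusted p = 9.17e-05), and its homeolog H01720_B had a log2 fold change of 0.82. IZH3, a membrane protein of zinc homeostasis, had 14000, 6975 and 5595 CPM in lactic acid, against 2835, 2913 and 2639 CPM in control for A05240_B (log2 fold change 1.66 ± 0.28, edgeR adjusted p = 3.65e-04), whereas E03730_A had 2269, 1002 and 1092 CPM in lactic acid, against 1075, 1108 and 1106 CPM in control (log2 fold change 0.41 ± 0.25, edgeR adjusted p = 0.175). Replicate 1 was the highest lactic acid library in both copies, and in E03730_A the groups overlapped. The ratio of the IZH3 copies changed by -1.25 ± 0.11, limma adjusted p = 1.78e-05. In the other direction, SMF1, a transporter of manganese and other divalent metals, had 21.6, 23.2 and 27.0 CPM in lactic acid, against 72.1, 69.2 and 69.8 CPM in control for A02600_B (log2 fold change -1.56 ± 0.11, edgeR adjusted p = 8.54e-07), and C03420_A had a log2 fold change of -1.23.

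FET3, the multicopper oxidase of high-affinity iron uptake, had 548, 537 and 718 CPM in lactic acid, against 85.6, 85.0 and 86.3 CPM in control for C00700_A (log2 fold change 2.81 ± 0.14, edgeR adjusted p = 1.27e-07). Its homeolog K00610_B had 469, 451 and 476 CPM in lactic acid, against 223, 220.5 and 213 CPM in control (log2 fold change 1.09 ± 0.11, edgeR adjusted p = 8.01e-06). The A copy was under the B copy in every control library and above it in every lactic acid library, and their ratio changed by 1.71 ± 0.12, limma adjusted p = 4.54e-06. CTH1/TIS11, which in S. cerevisiae speeds the decay of transcripts for iron-using proteins, had 198, 212 and 258 CPM in lactic acid, against 86.6, 94.7 and 92.1 CPM in control for B07350_A (log2 fold change 1.29 ± 0.12, edgeR adjusted p = 4.47e-06). SMF3, which exports iron from the vacuole, had log2 fold changes of 1.12 for E02740_A and 0.94 for A01130_B. CCC2, the copper pump that loads Fet3, had log2 fold changes of 0.75 for A08440_B and 0.62 for J04720_A, short of 2-fold. The activator genes AFT1/AFT2 were uneven: K01260_N had 1194, 359 and 243 CPM in lactic acid, against 726, 738 and 699 CPM in control (log2 fold change -0.27 ± 0.43, edgeR adjusted p = 0.606). Of its lactic acid libraries, replicate 1 lay above control and the other 2 lay under it.

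Genes related to siderophore transporters, which take up iron bound to chelators, had a median of 1.06, with 2 of 6 risen, or 4 without lactic acid replicate 1 and 1 with library totals. The study names these 6 for their rise in lactic acid at 18 h, so the set was picked by its response. G04250_B, annotated as ARN1, had 72.3, 72.0 and 80.7 CPM in lactic acid, against 28.8, 25.9 and 24.6 CPM in control (log2 fold change 1.50 ± 0.14, edgeR adjusted p = 4.98e-06), and its homeolog B02380_A had a log2 fold change of 1.21. I05800_A, annotated as Arn2, had a log2 fold change of 0.91, short of 2-fold. Of 5 genes related to FIT2, a mannoprotein of the wall that helps to keep siderophore-bound iron, 3 were tested and 2 had risen, at low levels. Of these calls 1 was lost without lactic acid replicate 1 or replicate 3, and both without lactic acid replicate 2. A10020_N had 3.19, 1.87 and 2.59 CPM in lactic acid, against 0.0691, 0.101 and 0.0771 CPM in control, and its counts were 37, 20 and 26 in lactic acid against 1, 1 and 1 in control, too few for a fold change to be given. Reads placed more than once were discarded in counting, so values of single members of such families are uncertain.

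Cell wall genes were more often lower than higher. Of 55 tested, 11 had fallen, or 22 with library totals, and 1 had risen, 38 were lower by the edgeR adjusted p, and the median was -0.56. The list took 0.826, 0.561 and 0.502% of the counts of the lactic acid libraries, against 2.05, 2.02 and 1.90% of those of the control libraries. Such a share weighs genes by their counts, and both copies of HBT1 made up much of it in control. It therefore does not measure the fall of the other members. HBT1, a protein of polarized growth, is counted in this list and had the highest levels: G05810_B had 2482, 733 and 798 CPM in lactic acid, against 5626, 5739 and 5253 CPM in control (log2 fold change -2.05 ± 0.38, edgeR adjusted p = 6.80e-04), and B00820_A had 2555, 904 and 884 CPM in lactic acid, against 5619, 5296 and 4768 CPM in control (log2 fold change -1.85 ± 0.35, edgeR adjusted p = 6.74e-04). In both, replicate 1 was the highest of the lactic acid libraries and still under control. The gene that rose was GAS2, a glucan-remodelling enzyme of the spore wall in S. cerevisiae, with a log2 fold change of 1.03 for A04780_B, and of 0.92 without lactic acid replicate 1. LDS2 of the outer spore wall, not in the list, had log2 fold changes of -1.52 for D01760_B and 0.18 for F00520_A.

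Weak acid response genes, many of which S. cerevisiae controls through Haa1, were more often lower than higher. Of 11 tested, 4 had fallen and 1 had risen, or 6 and none with library totals, with a median of -0.78 at 42 h and -1.74 at 18 h. By the interaction test 6 were higher at 42 h than at 18 h and none was lower. PDR16, a phosphatidylinositol transfer protein, had 37.9, 23.0 and 26.2 CPM in lactic acid, against 68.5, 79.2 and 74.5 CPM in control for G06250_B (log2 fold change -1.35 ± 0.17, edgeR adjusted p = 3.68e-05), and B00370_A had a log2 fold change of -1.18. YPC1/YDC1, an alkaline ceramidase, had 23.9, 26.0 and 19.1 CPM in lactic acid, against 76.3, 44.2 and 52.7 CPM in control for E04500_A (log2 fold change -1.33 ± 0.19, edgeR adjusted p = 1.24e-04), whereas A04400_B had 136, 119.7 and 126 CPM in lactic acid, against 101, 86.5 and 98.7 CPM in control (log2 fold change 0.41 ± 0.12, edgeR adjusted p = 0.0124). The ratio of the copies changed by -1.71 ± 0.18, limma adjusted p = 5.31e-05. The gene that rose was PMP3, a small membrane protein that affects ion uptake, with a log2 fold change of 1.03 for H02600_N, and of 0.85 without lactic acid replicate 3. The genes named CUP2/HAA1 had log2 fold changes of -0.99 for P01650_A, short of 2-fold, and -0.47 for H05120_B, with an edgeR adjusted p of 0.122. PDR12, an exporter of weak acid anions, had log2 fold changes of -0.76 for H03370_N and 0.29 for B06630_N, the second being -0.03 with library totals.

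MSN4/MSN2, general stress activators, had 85.4, 39.5 and 35.0 CPM in lactic acid, against 123, 132 and 118 CPM in control for I00420_B (log2 fold change -1.22 ± 0.26, edgeR adjusted p = 0.00165), and O00410_A had a log2 fold change of -0.99, just short of 2-fold. The plasma membrane proton pump PMA1, named after its values were seen, had 1207, 1076 and 798 CPM in lactic acid, against 876, 854 and 883 CPM in control for C05130_A (log2 fold change 0.24 ± 0.16, edgeR adjusted p = 0.205). Of 20 genes of the vacuolar and plasma membrane proton pumps, 2 had risen and none had fallen, with a median of 0.26, or -0.07 with library totals. None had risen with library totals or without lactic acid replicate 3, and 1 without control replicate 1, control replicate 3 or lactic acid replicate 2. PMA1 is not in this count, which therefore does not describe the plasma membrane pump itself.

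Storage carbohydrate genes were higher in part. Of 14 for trehalose and glycogen, 4 had risen and none had fallen, with a median of 0.43. With library totals 3 had risen, 3 had fallen and the median was 0.12, and 2 had fallen without lactic acid replicate 1. The list took 0.686, 0.719 and 0.697% of the counts of the lactic acid libraries, against 0.380, 0.405 and 0.387% of those of the control libraries. IGD1, which inhibits the glycogen debranching enzyme, had 1840, 1198 and 1112 CPM in lactic acid, against 298, 317 and 276 CPM in control for A09670_B (log2 fold change 2.22 ± 0.19, edgeR adjusted p = 3.52e-06), and its homeolog B09630_A had 1602, 1199 and 1281 CPM in lactic acid, against 325, 371 and 335 CPM in control (log2 fold change 1.99 ± 0.15, edgeR adjusted p = 1.48e-06). At 18 h IGD1 was lower in lactic acid, with log2 fold changes of -1.86 for A09670_B and -0.54 for B09630_A.

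Of 46 genes of autophagy and vacuolar proteolysis, 6 had risen and none had fallen. The count that had risen was 2 with library totals. Their median was 0.29, and -0.02 with library totals. PRB1/YSP3, vacuolar proteinase B, had 3730, 3893 and 3914 CPM in lactic acid, against 1203, 1166 and 1111 CPM in control for B01730_A (log2 fold change 1.73 ± 0.13, edgeR adjusted p = 1.47e-06), and its homeolog G04890_B had a log2 fold change of 0.78, the ratio of the copies changing by 0.94 ± 0.11, limma adjusted p = 9.94e-05. PEP4, vacuolar proteinase A, which activates the others, had 1046, 1072 and 1078 CPM in lactic acid, against 456, 499 and 471 CPM in control for H04020_B (log2 fold change 1.16 ± 0.12, edgeR adjusted p = 9.00e-06).

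Of 32 heat shock and chaperone genes, 8 had risen and 1 had fallen, and the median was 0.23, or -0.09 with library totals. With lactic acid replicate 3 left out 2 had risen, and with library totals 5 had risen and 4 had fallen. CPR6, a co-chaperone of Hsp90, had 179, 222 and 780.4 CPM in lactic acid, against 107, 106 and 109 CPM in control for B05320_A (log2 fold change 1.87 ± 0.43, edgeR adjusted p = 0.00270), with lactic acid replicate 3 far above replicates 1 and 2. Without lactic acid replicate 3 its log2 fold change was 0.88, short of 2-fold. APJ1, a chaperone of the Hsp40 type, was more even, with 657, 527 and 975 CPM in lactic acid, against 195, 204 and 184 CPM in control for G02980_B (log2 fold change 1.89 ± 0.20, edgeR adjusted p = 1.51e-05). The gene that fell was CNE1, the calnexin of the endoplasmic reticulum, with a log2 fold change of -1.43 for A00350_A.

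Few genes of the antioxidant list were called. Of 31 tested, 1 had risen, H02870_B (YPR1/GCY1, an aldo-keto reductase), with a log2 fold change of 1.44, 2 had fallen, B07620_A (PRX1) and B04860_N (CTT1), and the median was 0.02, or -0.30 with library totals. PRX1, the mitochondrial peroxiredoxin, had 52.6, 65.3 and 69.0 CPM in lactic acid, against 173, 186 and 177 CPM in control for B07620_A (log2 fold change -1.52 ± 0.15, edgeR adjusted p = 6.65e-06), whereas its homeolog H02340_B had 212, 253 and 309 CPM in lactic acid, against 272, 302 and 320.3 CPM in control (log2 fold change -0.21 ± 0.18, edgeR adjusted p = 0.320). The ratio of the PRX1 copies changed by -1.31 ± 0.09, limma adjusted p = 3.61e-06. CTT1, cytosolic catalase, had 1655, 895 and 471 CPM in lactic acid, against 2269, 2409 and 2374 CPM in control for B04860_N (log2 fold change -1.22 ± 0.34, edgeR adjusted p = 0.00787), with replicate 1 the highest in lactic acid. Without replicate 3 the log2 fold change of CTT1 was -0.90, short of 2-fold. Without lactic acid replicate 1 the list had 3 fallen. AHP1, SOD1 and CCP1 are not in it, and both copies of CCP1 were among the large rises given above. AHP1, a thiol peroxidase, had log2 fold changes of -1.66 for D02100_B and -0.80 for F00850_A. SOD1, copper-zinc superoxide dismutase, had 505, 544 and 565 CPM in lactic acid, against 221, 245 and 251 CPM in control for O02860_A (log2 fold change 1.17 ± 0.11, edgeR adjusted p = 7.43e-06).

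Genes for sulfur, methionine and one-carbon units were called at shares near those of all genes, with 4 of 34 risen and 3 fallen, or 7 fallen with library totals. MET13, methylenetetrahydrofolate reductase, which is not in that count, had 377, 333 and 323 CPM in lactic acid, against 66.0, 64.1 and 67.1 CPM in control for E01670_A (log2 fold change 2.39 ± 0.12, edgeR adjusted p = 1.07e-07), and its response at 42 h differed from that at 18 h, when it was lower, by 3.62 ± 0.17, edgeR adjusted p = 2.55e-07. DFR1, dihydrofolate reductase and one of the 3 that fell, had a log2 fold change of -1.52 for B05770_A. Of 18 ergosterol genes, 3 had fallen and 1 had risen, against 5 fallen without lactic acid replicate 1 and 7 with library totals, and ERG24, the sterol C-14 reductase, had 15.1, 19.96 and 23.7 CPM in lactic acid, against 74.97, 59.9 and 63.3 CPM in control for A02940_B (log2 fold change -1.76 ± 0.17, edgeR adjusted p = 7.28e-06).

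Cell cycle and histone genes were more often lower than higher. Of 58 tested, 8 had fallen, or 18 with library totals, and none had risen, 37 were lower by the edgeR adjusted p, and the median was -0.52. SWI4, the DNA-binding part of a factor that starts the cell cycle, had 30.2, 21.5 and 19.8 CPM in lactic acid, against 74.3, 67.8 and 59.9 CPM in control for B07830_A (log2 fold change -1.49 ± 0.15, edgeR adjusted p = 1.15e-05), and H02130_B had a log2 fold change of -1.33. Meiosis and spore genes went both ways, with 7 of 50 risen and 8 fallen, against 3 and 13 with library totals and 5 fallen without control replicate 1. SPO11, which makes the double-strand breaks of meiosis, had 52.9, 36.5 and 23.8 CPM in lactic acid, against 11.3, 13.1 and 12.8 CPM in control for B09510_A (log2 fold change 1.61 ± 0.24, edgeR adjusted p = 1.48e-04). SMK1, a kinase of spore wall formation, had a log2 fold change of 1.62 for G02610_B. NDJ1, a protein of meiotic telomeres, had a log2 fold change of -2.98 for A02950_B at levels of at most 3.78 CPM, and IME2, a kinase that starts meiosis and was named after its values were seen, had a log2 fold change of -2.14 for M00960_B.

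Other lists held few calls. Of 28 genes of fatty acid oxidation and peroxisomes, 1 had fallen and none had risen, with a median of 0.39. Without lactic acid replicate 1 or with library totals 3 had fallen, and without control replicate 1 or lactic acid replicate 3 1 had risen. None of 32 proteasome genes was called in either direction, though 11 were lower and 2 higher by the edgeR adjusted p, and 2 had fallen without lactic acid replicate 1, 1 without lactic acid replicate 3 and 3 with library totals. Actin patch genes had 5 of 39 fallen, but 10 without lactic acid replicate 1 and 12 with library totals. Genes of P-bodies and stress granules, where untranslated mRNAs gather, had 5 of 35 fallen and 3 risen, but 2 fallen without lactic acid replicate 2, 3 without replicate 3, and none risen with library totals. The list for the transport and use of lactate and other monocarboxylates has 9 genes and also holds the amino acid permease gene PUT4. Of the 9, 3 were tested in the full table and none was called, and 1 was higher by the edgeR adjusted p. The plot of gene lists shows the members of each list around the median of all genes.

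**Figure D3:**
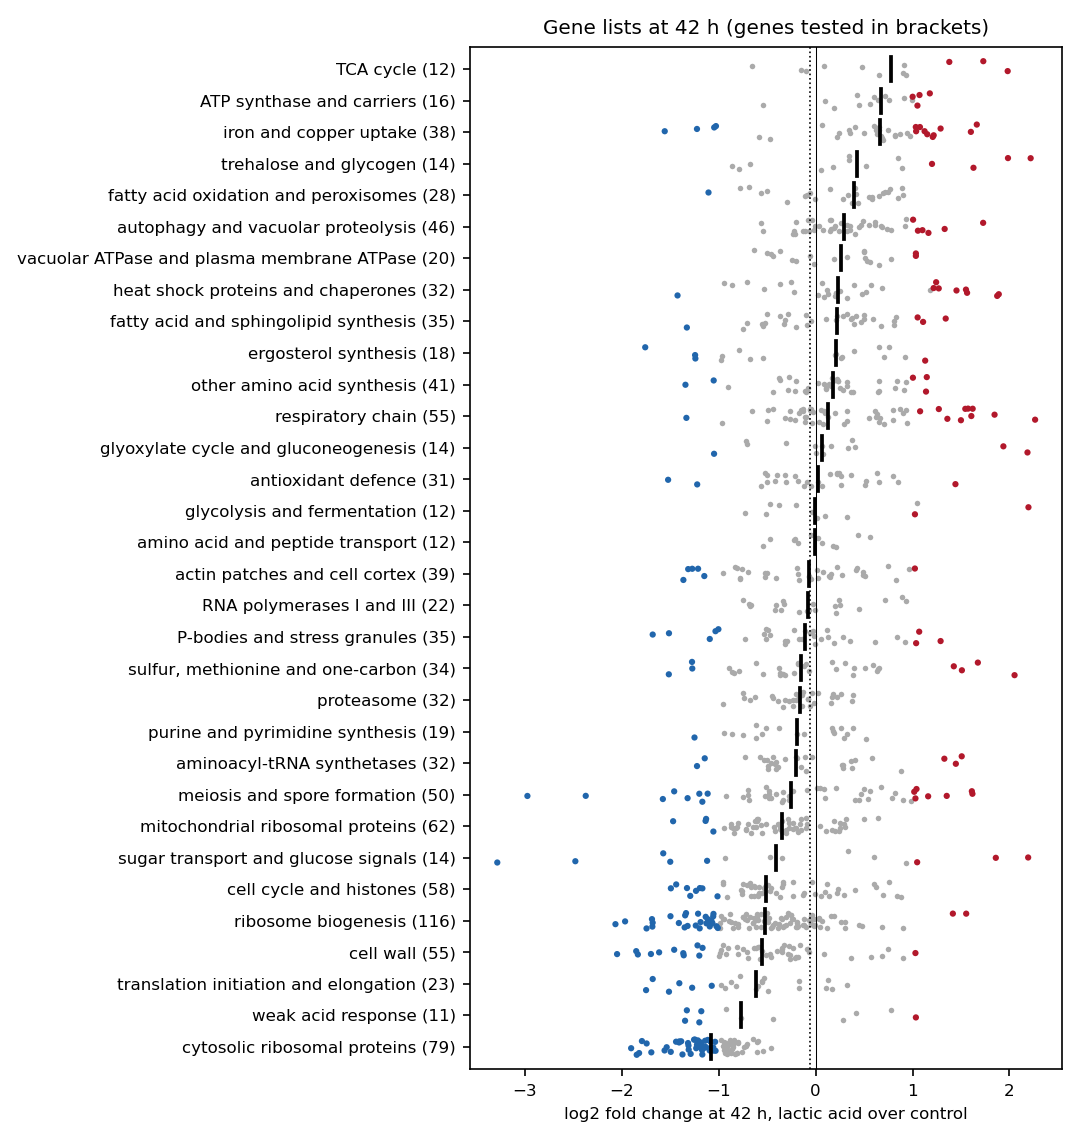
Log2 fold change of lactic acid over control at 42 h for the tested members of 32 gene lists with at least 10 genes tested, with genes that had risen in red, those that had fallen in blue and the others in grey. Black bars are list medians and the dotted line is the median of all genes, and every ribosomal protein gene lies left of 0 while the TCA cycle list has the highest median, 0.78.

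6 genes were annotated as related to formate dehydrogenase, an enzyme that oxidizes formate to carbon dioxide. Whether these genes encode that activity was not measured. The study names the family for its rise at 18 h and for the fall of F04070_N and N02280_N at 42 h. It was therefore picked by its response in these data, and the directions below are a description. At 42 h, 2 of the 6 had fallen and none had risen, with a median of -0.37, whereas at 18 h all 6 had risen, with log2 fold changes between 2.76 and 6.32. F04070_N had 6.21, 5.90 and 7.06 CPM in lactic acid, against 48.6, 45.8 and 33.8 CPM in control (log2 fold change -2.74 ± 0.16, edgeR adjusted p = 3.64e-07). N02280_N had 111, 114 and 46.1 CPM in lactic acid, against 284, 282 and 182 CPM in control (log2 fold change -1.46 ± 0.28, edgeR adjusted p = 8.65e-04). I01900_B, which had the largest rise at 18 h, 6.32, had 95.1, 106 and 83.7 CPM in lactic acid, against 106, 109 and 84.6 CPM in control (log2 fold change -0.07 ± 0.16, edgeR adjusted p = 0.700), so that the groups overlapped. The interaction test gave a lower response at 42 h for all 6, by -7.07 ± 0.27, edgeR adjusted p = 1.09e-07 in F04070_N and by -6.28 ± 0.50, edgeR adjusted p = 7.36e-06 in N02280_N. As in other families, reads placed more than once were not counted for these genes.

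Over all genes, the response at 42 h differed from that at 18 h in 5202 genes by the interaction test (53.7%), higher at 42 h in 2795 (28.9%) and lower in 2407 (24.9%). At 18 h, 4.25% of the genes tested had risen and 20.7% had fallen. Of the 683 genes that had risen at 42 h, 141 had also risen at 18 h, 484 had not been called and 58 had fallen. Of the 959 that had fallen at 42 h, 495 had also fallen at 18 h, 458 had not been called and 6 had risen. The interaction passed for 456 of the genes that rose at 42 h (66.8%) and for 551 of those that fell (57.5%). The 58 and the 6 genes called in opposite directions at the 2 times were among them.

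**Figure D4:**
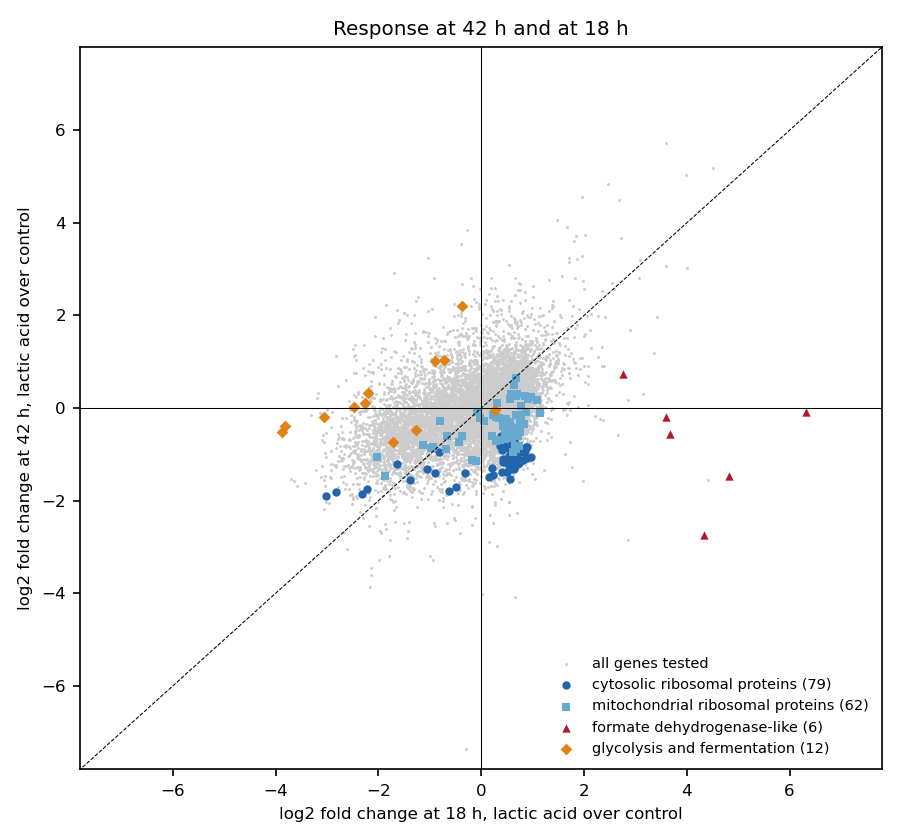
Log2 fold change of lactic acid over control at 42 h (y) against that at 18 h (x) for the 9683 genes tested, in grey, with 4 gene lists in colour and a dashed line where both are equal. Most ribosomal protein genes lie below 0 at 42 h and above 0 at 18 h, genes of the glycolysis list other than GUT1 and GCR2 lie nearer to 0 at 42 h than at 18 h, and the formate dehydrogenase-like genes lie far right of the line.

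Of 2509 homeolog pairs known from the tables used here, 2498 had both genes tested by edgeR at 42 h. Both copies had risen in 98 pairs and both had fallen in 158. A single copy had risen in 120 pairs, A in 64 and B in 56, and a single copy had fallen in 180, A in 104 and B in 76. No pair had 1 copy risen and the other fallen. Across pairs, the log2 fold changes of the copies had a Pearson r of 0.831, given as a description because the copies share libraries and scaling. The limma test of the log2 ratio of A to B passed an adjusted p of 0.05 toward A in 557 of 2500 pairs (22.3%) and toward B in 552 (22.1%), and 84 of these changes were at least 2-fold. Among named genes whose pair was tested, ratio changes of at least 2-fold were those of MAK5, BMT2, FET3, YPC1/YDC1, ACH1, PRX1, SDH6, IZH3, GUT1, DPB3/DLS1 and PAH1. The LDS2 copies were not among the pairs tested. In GUT1 (B02500_A and G04130_B) the ratio changed by -1.24 ± 0.11, limma adjusted p = 1.69e-05, and although the levels of both copies were uneven over the lactic acid libraries, both were highest in replicate 1 and lowest in replicate 3. DPB3/DLS1, named for subunits of DNA polymerase epsilon and of a chromatin remodeler, had log2 fold changes of -1.44 for J03370_A and -0.34 for A07060_B. The ratio of these copies changed by -1.11 ± 0.15, limma adjusted p = 2.57e-04. PAH1, phosphatidate phosphatase, had a log2 fold change of 1.11 for A02190_B, or 0.91 without lactic acid replicate 1, and of 0.11 for C07210_A, or -0.32 without that library, with a ratio change of -1.06 ± 0.12, limma adjusted p = 1.24e-04.

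**Figure D5:**
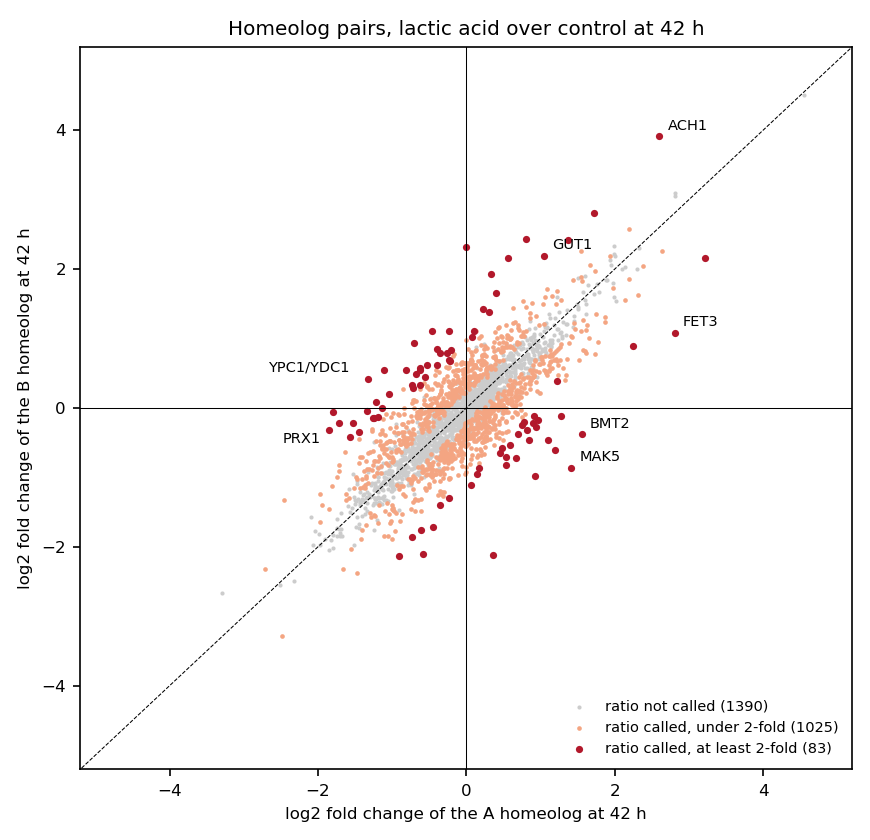
Log2 fold change at 42 h of the B homeolog (y) against that of the A homeolog (x) in 2498 pairs, lactic acid over control, coloured by the limma test of the A to B ratio, with a dashed line where both are equal. The 83 pairs in dark red changed their ratio by at least 2-fold, and MAK5 and BMT2 lie right of 0 and below it.

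Genes with an identical copy elsewhere in the genome were counted in a separate table that holds only reads with more than 1 equally good placement, so each value is the signal of more than 1 gene. Of 230 tested, 24 had risen (10.4%) and 32 had fallen (13.9%). Identical copies were counted separately although their shared reads were placed at random among them. These are therefore not counts of independent genes, and like values of identical copies follow from the shared reads. Copies of MT-58, an unnamed product, recur among those that had risen. GAL10, UDP-glucose 4-epimerase, had 2637, 2663 and 2090 CPM in lactic acid, against 442, 456 and 343 CPM in control for M02180_A (log2 fold change 2.58 ± 0.18, edgeR adjusted p = 2.70e-07). Its identical copy J02020_A, which shares these reads, had a log2 fold change of 2.59. GSM1, a regulator of genes used without glucose, had 2075, 2792 and 2297 CPM in lactic acid, against 858, 889.8 and 836 CPM in control for F02020_A (log2 fold change 1.47 ± 0.15, edgeR adjusted p = 6.18e-06). The genes related to NADPH dehydrogenase 1 had log2 fold changes of 1.55 for G01020_A and 1.50 for P00970_A. In GAL10 and GSM1 every lactic acid library was above every control library. CPM here is relative to the totals of this table.

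The D-lactate dehydrogenases, which oxidize D-lactate to pyruvate, differed from control in opposite directions by close to 2-fold. DLD1, the enzyme of the mitochondrial inner membrane, had 2935, 1827 and 1203 CPM in lactic acid, against 4420, 4340 and 4230 CPM in control for I04780_A (log2 fold change -1.12 ± 0.24, edgeR adjusted p = 0.00156). DLD2 had 1747, 2103 and 1483 CPM in lactic acid, against 983, 856 and 761 CPM in control for G05430_N (log2 fold change 1.04 ± 0.17, edgeR adjusted p = 2.43e-04). The other DLD2 copy, B01190_N, had a log2 fold change of 0.92 with an edgeR adjusted p of 5.62e-04, short of 2-fold. Both DLD2 copies are identical and their shared reads were placed at random. Their values are therefore readings of a single signal near the 2-fold limit and do not tell the copies apart. The lactic acid values of DLD1 were uneven, with replicate 1 the highest, and all were under control. Genes of translation were among those that fell. RPL6B/RPL6A had 2328, 2702 and 2960 CPM in lactic acid, against 8131, 8086 and 8499 CPM in control for I03990_A (log2 fold change -1.63 ± 0.12, edgeR adjusted p = 2.70e-07), and RPG1, a subunit of translation initiation factor 3, had a log2 fold change of -1.46 for F04680_B. THI7, a thiamine transporter, had a log2 fold change of -1.73 for C02780_A, and DFG5, a cell wall enzyme, one of -2.31 for E01190_A.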

How the data were processed

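RNA was sequenced from 12 bioreactor samples of strain ATCC60483. The authors sequenced rRNA-depleted libraries as 100-nt read pairs, aligned them to the genome of the same strain with Bowtie 1.1.2 allowing no mismatch, and counted reads per gene with HTSeq 0.6.0. They deposited raw counts per gene in 2 tables: full counts, from which reads with several equally good placements were discarded, and duplicated counts of such reads over genes with an identical copy. Normalized tables that the authors made with edgeR 3.18.1 were not used. Gene names and homeolog pairs came from the study's supplementary tables, whose fold changes and p-values were not used. The assembly version is not given in the sources used here, so no coordinates are printed. Coding lengths and the order of genes came from RefSeq's ASM198439v2 annotation.

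The counts were fitted with edgeR 4.0.16 in R 4.3.3 with TMM factors, a model of 4 groups over 11 libraries and the quasi-likelihood test, two-sided, on 9683 genes, those that reached 1 CPM in 3 libraries of some condition. Duplicated counts were fitted apart. Homeolog ratios, log2 of A over B with 0.5 added to each count, were tested with limma 3.58.1 where the copies together had 10 or more counts in each library. All p-values were adjusted by the Benjamini-Hochberg method over all genes or pairs tested. The scripts were tested on simulated counts. Entries that were not genes of mRNA or the mitochondrial genome took 0.0576 to 0.152% of the counts of the 42 h libraries and were left out.

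Named genes were the 15 largest called changes in each direction with at least 10 CPM in a group and no overlap between groups, the 2 largest called members of each list in each direction with their homeologs, members of small families, genes whose role the study's text names, and examples said to be chosen after their values were seen. The genes, lists and comparison were chosen with earlier results of these data known. Genes are named by S. cerevisiae orthologs where the tables at hand give one. Alternatives were limma-voom, DESeq2 1.42.0, a test against a 2-fold minimum, other scalings, filters and sets of libraries, a replicate block, removal of a trend on coding length, and leaving out each library.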

Additional observations from a re-analysis of the deposited data

Results flagged for a closer look

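The response to lactic acid at 42 h differed from that at 18 h in 5202 of 9683 genes, by edgeR's test of the difference itself. Among the genes with the largest changes and the small families, 3 were called in opposite directions at the 2 times. F04070_N, a formate dehydrogenase-like gene, had a log2 fold change at 42 h minus that at 18 h of -7.07, with 6.21, 5.90 and 7.06 CPM in lactic acid at 42 h, against 48.6, 45.8 and 33.8 CPM in control. N02280_N, of the same family, had a difference of -6.28, and the study names both genes for these responses. G04440_N, which is uncharacterized, had one of 4.29, in the other direction. Differences as large were found in genes not called in opposite directions: -7.07 in B09945_N, which was not called at 18 h, and -6.39 in I01900_B, a formate dehydrogenase-like gene not called at 42 h. The cause was not tested.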

How the results depend on the processing

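The counts of called genes moved by over 1.5 times under a test against a 2-fold minimum, to 263 higher and 296 lower, and with library totals, to 340 higher and 1893 lower, where the duplicated genes called lower numbered 21. Every other alternative kept them within 1.5 times: 641 to 800 higher and 773 to 1028 lower. Leaving out a library gave 602 to 692 higher and 926 to 1299 lower, 4531 to 5866 genes with unequal response at the 2 times, 20 to 25 duplicated genes higher and 26 to 36 lower, and 442 to 594 pairs toward A and 433 to 565 toward B. The highest count lower came without lactic acid replicate 1, the lowest count higher without lactic acid replicate 3.

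Of 254 named genes, 175 were called. Of these, 145 were called in every fit without a library, 147 with library totals and 112 against a 2-fold minimum. Among the remaining alternatives, 165 were called in each one that tested them. With the filter at 10 CPM 161 were still called, since some were not tested there. The sign changed under some alternative in 14 named genes, 8 of them with library totals, and none of the 14 was called. In 3 the adjusted p was under 0.05 in a fit with or without the change. PDR12 (B06630_N) was -0.035 with library totals, against 0.29. Over the fits without a library, AFT1/AFT2 (C01350_N) ran between -0.75 and 0.32 and PAH1 (C07210_A) between -0.32 and 0.26, against 0.03 and 0.11 with all, both lowest without lactic acid replicate 1. The causes were not tested.

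Samples with the same replicate number shared little: the correlations of their deviations from the group means were 0.167, -0.107 and 0.220 over 8557 genes. With the replicate number as a block, 668 genes were higher and 987 lower, 5008 differed between the times, 24 duplicated genes were higher and 32 lower, and 539 pairs moved toward A and 525 toward B. In a fit of the 6 libraries of 42 h the block gave 762 higher and 862 lower. Genes near the filter of 1 CPM rest on few counts, which limits their fold changes.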
